A study of Danio rerio with 370 samples.

Results

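Radial glia sorted from the adult zebrafish forebrain were divided by ccnd1, the gene for cyclin D1 (listed as CCND1, ENSDARG00000101637). Members were chosen by measured values. RG gate cells had to pass quality filters and were called ccnd1-positive with 1 or more reads of ccnd1 and ccnd1-negative with 0 reads. Of 370 sequenced cells, 171 came from the RG gate and 73 of these passed, 31 of them ccnd1-positive and 42 ccnd1-negative. Every fish carried the transgenes her4.1:mcherry, which marks radial glia, and elavl3:gfp, which marks neurons. The RG gate took mCherry-high and GFP-negative cells, the NBN gate mCherry-low and GFP-positive newborn neurons, and the MN gate mCherry-negative and GFP-positive mature neurons. The gates rest on reporter proteins under the her4.1 and elavl3 promoters, and mCherry outlasts its mRNA, so a gate reports recent as well as present promoter activity. The tissue was the forebrain (telencephalon with anterior diencephalon), and neither sex nor exact age is given in the labels.

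Cells were compared as sums per fish. Fish 1 to 5 were read from the numbers in the sample titles, and batch bfx811, whose titles carry no fish number, was counted as 1 fish. A separate fish label divides the cells into 4 and cuts across fish 2 and fish 4. Fish 3 had 1 ccnd1-positive cell and was left out of the sums. The remaining 5 pairs held 30 positive and 38 negative cells, with 3 and 4 cells in fish 1, 7 and 4 in fish 2, 4 and 11 in fish 4, 4 and 8 in fish 5, and 12 and 11 in batch bfx811. The 10 sums held 593546 to 3954099 reads. Values below are CPM, the reads of a gene scaled to 1000000 reads of the sum. They were read without molecular identifiers, so reads of 1 cell are not independent molecules, and in a sum a few cells with many reads of a gene can set its level.

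Radial glia are the neural stem cells of the adult fish brain. Their bodies line the ventricle, they share transporters and metabolic enzymes with astrocytes, and most of them rest outside the cell cycle under Notch signalling, whose Hes and Hey target genes repress neurogenesis. Cyclin D1 pairs with the kinases Cdk4 and Cdk6 and drives cells through G1. It marks entry into the cycle and not a given phase, whereas the MCM helicase, PCNA and ribonucleotide reductase serve DNA replication, and mitotic kinases and kinesins follow in G2 and M.

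ccnd1 was detected in 31 of 73 RG gate cells (42.5%, exact 95% interval 31.0 to 54.6%, counting error only). The share was 42.9% in fish 1, 63.6% in fish 2, 20% in fish 3, 26.7% in fish 4, 33.3% in fish 5 and 52.2% in batch bfx811. In the NBN gate 8 of 164 cells that passed had a read (4.88%), and in the MN gate 0 of 27, which allows a share of up to 11.1%. In each of the 6 fish the RG share was higher than the NBN share, by 12.9 to 63.6 percentage points (mean 34.9 ± 18.8, SD, n = 6), which is a description, since ccnd1 reads chose the members. A positive cell held a median of 138 reads, from 7 to 602. Just inside the threshold lay cells with 7, 13, 15 and 23 reads, and just outside it all cells were at 0. After each cell was thinned to 20000 reads, 1 of the 31 positive cells had lost its ccnd1 reads.

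No difference in depth was detectable at 5 fish. Positive cells had 247905 ± 87529 reads per cell and negative cells 257236 ± 79532 (SD of fish means, n = 5, exact permutation test over fish, p = 0.688). They had 1593 ± 251 and 1528 ± 242 genes per cell (n = 5, exact permutation p = 0.5). With 5 fish this test cannot go below 0.0625. The share of reads in the 50 most abundant genes was lower in positive cells in all 5 fish (33.8% against 37.8%, n = 5, exact permutation p = 0.0625), and this share also took part in the quality filters.

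Genes of DNA replication were read in part of the ccnd1-positive cells. At least 1 of the 6 MCM helicase genes was read in 18 of 31 positive and 7 of 42 negative cells, and at least 3 of them in 9 positive and 0 negative cells, which allows a share of negative cells of up to 7.14%. PCNA, the sliding clamp of DNA polymerase, was read in 13 positive and 8 negative cells, and MCM5 in 10 and 2. mki67, a proliferation marker whose expression the study describes as limited to certain phases of the cycle, was read in 4 positive cells and 1 negative cell. Of the genes of later phases, CDK1, the mitotic kinase, was read in 3 and 1, and TOP2A, a topoisomerase of G2 and mitosis, in 2 and 1. Of the radial glia markers, her4.1 was read in 30 of 31 positive and 38 of 42 negative cells and FABP7 (ENSDARG00000007697) in 31 and 40. GLUL (ENSDARG00000099776) was read in 25 and 39, S100B in 23 and 37, GJA1 in 16 and 34, and GFAP in 8 and 14.

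Counted per cell over 56 DNA replication genes, the positive cells formed a wide range. They held a median of 3 genes with a read (0 to 39), against 2 (1 to 10) in negative cells. A total of 11 positive cells held 6 or more replication genes, a level chosen after the values were seen, with 9 to 39 genes. These 11 came from 4 fish, 5 of them from fish 2, 2 from fish 4, 1 from fish 5 and 3 from batch bfx811. The other 20 positive cells held 0 to 5, like 41 of the 42 negative cells. In fish 1 none of the 3 positive cells reached 6. Within the positive class the 11 cells had a median of 576 CPM of ccnd1 and the other 20 a median of 735 CPM (Spearman rho -0.29 over 31 cells that share fish and libraries, given as a description). Over 47 genes of G2 and mitosis, 1 positive cell held 36 genes and 1 negative cell held 27, both of batch bfx811.

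**Figure D1:**
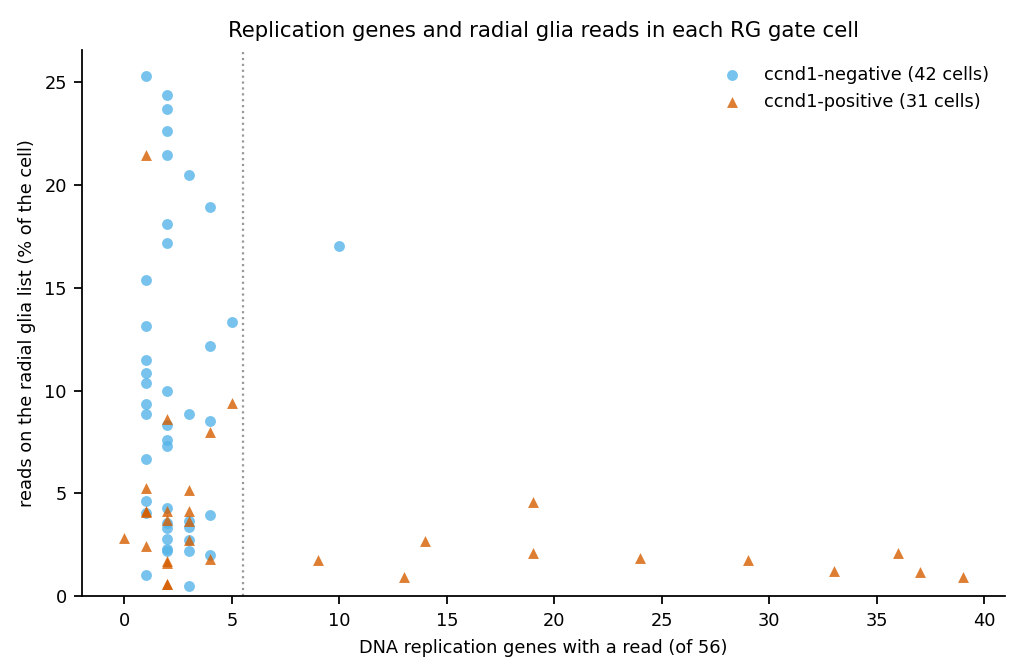
Each point is 1 RG gate cell that passed the filters, with the number of 56 DNA replication genes that had a read (x axis) and the share of its reads on the radial glia list (y axis, percent), and the dotted line lies between 5 and 6 genes. The 11 ccnd1-positive cells to its right all lie below 5% on the y axis, and the single ccnd1-negative cell there lies at 17.0%.

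Across all genes, the calls lay on the side of lower levels in the ccnd1-positive sums and included genes of radial glia identity. Of 3736 genes tested with the fish as a block, 13 were lower and 0 higher in the positive sums (edgeR quasi-likelihood test, Benjamini-Hochberg adjusted p of 0.05, ccnd1 itself left out). At an unadjusted p of 0.05, 106 were lower and 36 higher. DESeq2 called 185 lower (5.05% of those with an adjusted p) and 91 higher (2.48%) on the same sums, and 9 of the 13 were among its lower genes. The median log2 fold change of all tested genes was -0.22 (-0.09 with cells thinned), and the fold changes below are to be read against that shift. The calls rest on few cells. Without fish 4, 1 gene was called lower (zgc:153704), and without fish 1, 2, 5 or batch bfx811 the count was 5, 6, 4 and 10. Without the block 1 gene was lower. With the sums thinned to 20000 reads per cell, 1 gene was lower, among 1162 tested.

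The lowest p belonged to si:ch211-251b21.1 (ENSDARG00000007275). The study gives it as encoding a glutamate receptor of the Grik family and picked it as a glial marker on these libraries, so its place on the radial glia list is not independent. It stood at 9988, 5982, 11501, 23256 and 20820 CPM in the negative sums of fish 1, 2, 4 and 5 and batch bfx811, and at 3290, 2982, 3318, 1798 and 3072 CPM in their positive sums. All positive sums were below all negative sums (log2 fold change -2.27 ± 0.26 SE, edgeR adjusted p = 2.61e-08). FABP7 (ENSDARG00000007697), the brain fatty acid binding protein and a classical radial glia marker, was at 10398, 12584, 14201, 23295 and 13390 CPM in the negative and 6729, 5534, 5524, 5682 and 7589 CPM in the positive sums. Again the classes did not overlap (-1.31 ± 0.21, adjusted p = 8.26e-05), although every positive cell still had FABP7 reads. The copy ENSDARG00000034650 had 0 reads in all sums.

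Genes of glial coupling and neurotransmitter uptake were lower as well. GJA1 (cx43, ENSDARG00000041799), the gap junction protein of astroglia, had 5948, 3099, 2268, 3961 and 2886 CPM in the negative and 1572, 923, 169, 1634 and 964 CPM in the positive sums. The classes did not overlap (-2.11 ± 0.43, adjusted p = 0.00491), and 16 of 31 positive against 34 of 42 negative cells had a read. The glutamate transporter SLC1A2 (ENSDARG00000102453) was at 5772, 2674, 12688, 20564 and 12862 CPM in the negative and 3998, 3673, 5148, 3380 and 4387 CPM in the positive sums. It was lower in 4 of 5 fish, with fish 2 the exception, and the classes overlapped (-1.23 ± 0.28, adjusted p = 0.0273). Glutamine synthetase GLUL (ENSDARG00000099776), which turns glutamate into glutamine, had 4101, 4009, 8903, 15826 and 10687 CPM in the negative and 5102, 2056, 6575, 1277 and 3409 CPM in the positive sums. It was lower in 4 of 5 fish, with fish 1 the exception (-1.30 ± 0.32, adjusted p = 0.0372). Its second copy, ENSDARG00000100003, was at a mean of 573 CPM in the negative and 685 CPM in the positive sums (0.19 ± 0.76, adjusted p = 1).

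Brain creatine kinase CKB (ENSDARG00000043257), which buffers ATP, completed the called members of the radial glia list, with 4732, 3053, 2263, 5393 and 3438 CPM in the negative and 735, 1245, 2438, 1673 and 644 CPM in the positive sums. It was lower in 4 of 5 fish, with fish 4 the exception (-1.71 ± 0.40, adjusted p = 0.0275). Of 62 radial glia genes in the file 37 passed the filter on low counts, and 6 of these 37 were called lower and 0 higher, against 0.348% lower and 0% higher of all genes tested. At an unadjusted p of 0.05, 20 of the 37 were lower, against 2.84% of all genes, and DESeq2 called 9 lower, against 5.05%. The list was drawn up with earlier results of these data known, and its counts are no independent evidence of its direction. Its median log2 fold change was -1.23, and its per-fish median lay between -2.45 and -0.61. With cells thinned, its median was -1.13 over 33 genes, and without fish 4 none of its members was called. Per cell, 21.2 of the 62 genes had a read in positive cells and 25.3 in negative cells, a difference of -4.09 ± 1.56 (SD over fish, n = 5) with all 5 fish lower.

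**Figure D2:**
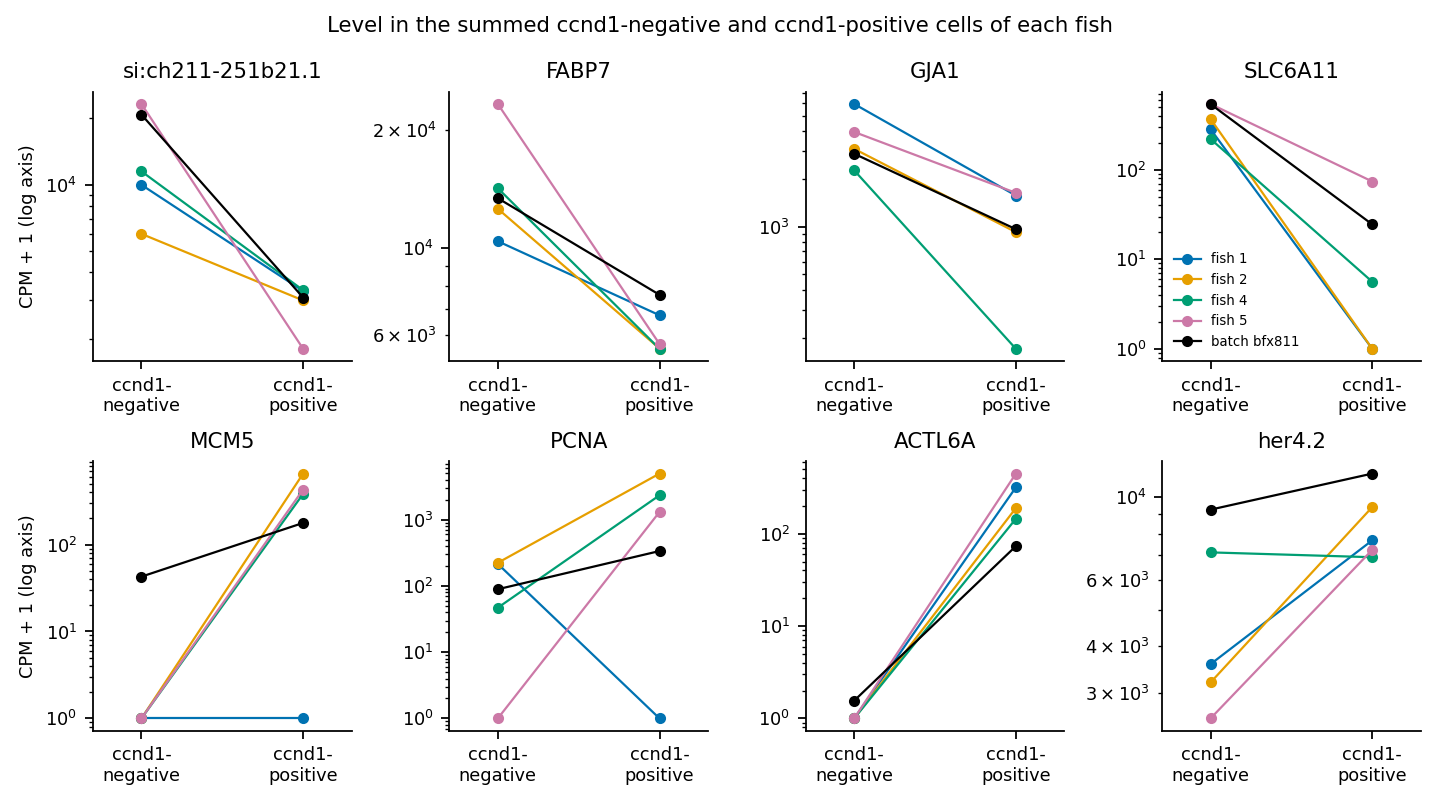
Level of 8 genes in the summed ccnd1-negative and ccnd1-positive cells of each fish, as CPM plus 1 on a log axis, with a line joining the 2 sums of a fish. The 4 radial glia genes of the upper row are lower in the positive sums in all 5 fish, MCM5 is higher in 4 and at 0 in both sums of fish 1, and ACTL6A is higher in all 5.

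Other members of the radial glia list missed the threshold. S100B, a calcium-binding protein of glia, stood at 1291, 1181, 963, 848 and 1486 CPM in the negative and 214, 176, 279, 770 and 718 CPM in the positive sums, without overlap (-1.78 ± 0.70, edgeR adjusted p = 0.910). SLC6A11, a GABA transporter of glia, was at 283, 369, 220, 543 and 541 CPM in the negative and 0, 0, 4.613, 73.0 and 23.5 CPM in the positive sums (edgeR adjusted p = 0.274, DESeq2 adjusted p = 4.26e-05), and was read in 4 of 31 positive and 22 of 42 negative cells. Of the transcription factors of neural progenitors, SOX2 had a log2 fold change of -0.22 and was higher in 2 of 5 fish, and SOX3 had one of 1.06 and was higher in 4 of 5 (adjusted p = 1 for each). GFAP, the glial filament gene, had means of 376 CPM and 168 CPM (-1.64 ± 1.81, adjusted p = 1).

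The other 7 genes called lower were outside the lists. ptgdsb.2, of the prostaglandin D synthase family, had 3223, 1756, 3047, 3630 and 1450 CPM in the negative and 672, 181, 236, 1243 and 248 CPM in the positive sums, without overlap (-2.76 ± 0.50, adjusted p = 0.000722). It was the gene still called after thinning. luzp2 was lower in all 5 fish, from a mean of 1862 to 347 CPM (-2.74 ± 0.62, adjusted p = 0.0273). zgc:153704 was at 1028, 639, 845, 1646 and 247 CPM in the negative and 0, 0, 153, 0.961 and 0 CPM in the positive sums (adjusted p = 0.000104). ACBD7, an acyl-CoA binding protein, was at a mean of 441 CPM in the negative and 14.1 CPM in the positive sums (adjusted p = 0.0275). ifi27.2 and si:dkey-238c7.13 varied between fish far more than between classes, with 13.4 to 3787 CPM and 174 to 26777 CPM in the negative sums (adjusted p = 0.0280 and 0.0275). si:dkey-238c7.13 was lower in 4 of 5 fish and higher in fish 5, at 5115 CPM in the negative and 15787 CPM in the positive sum. ENSDARG00000080337, for which no name was at hand, moved from a mean of 36497 to 28928 CPM (-0.50 ± 0.12, adjusted p = 0.0273). It was lower in 4 of 5 fish and higher in fish 4, at 21585 CPM in the negative and 25998 CPM in the positive sum.

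**Figure D3:**
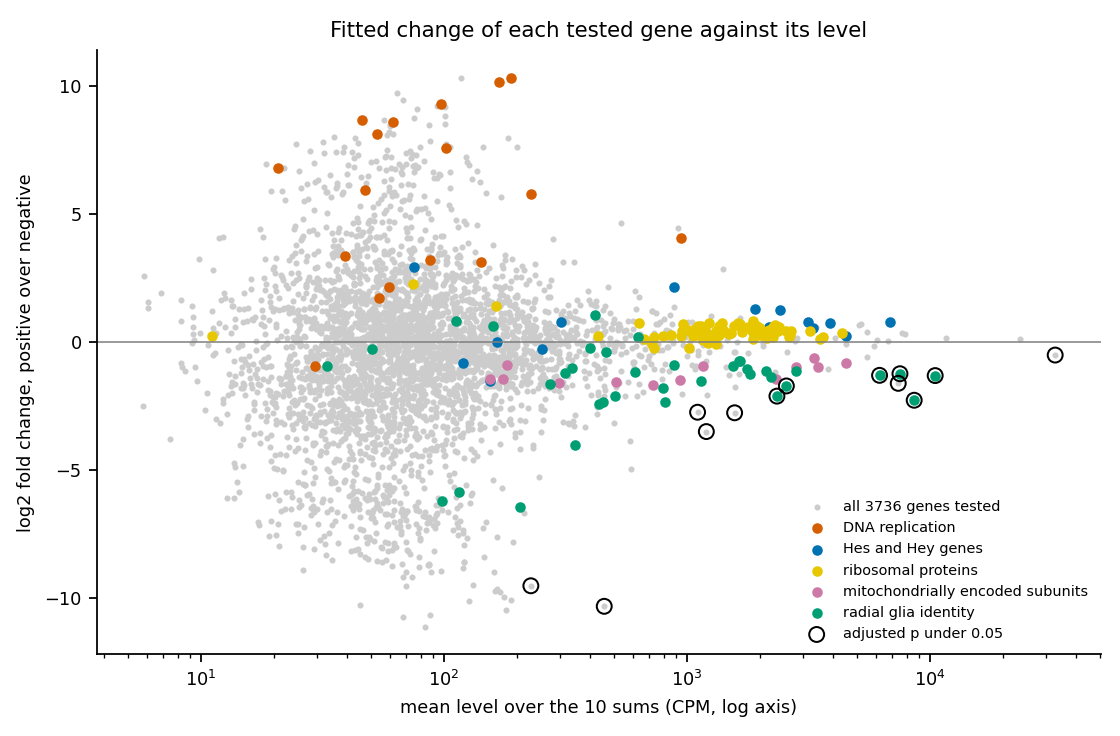
Fitted log2 fold change of each of 3736 tested genes (positive over negative sums) against its mean level over the 10 sums (CPM, log axis), with 5 gene lists in colour and the 13 genes with an adjusted p under 0.05 ringed. The radial glia and mitochondrially encoded genes lie mostly below 0 at high level, while the replication genes lie above 0 among scarce genes with a wide scatter.

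Among DNA replication genes edgeR called 0, although nearly all that were tested lay above 0. Of 56 genes in the file 17 passed the filter, since most were too scarce or read in too few sums. Of the 17, 16 had a log2 fold change above 0, against 45.7% of all tested genes. At an unadjusted p of 0.05, 7 were higher, against 0.964% of all genes, and DESeq2 called 7 higher, against 2.48% of all genes. The filter kept genes that were high in either class, so the 17 are not a fair sample of the 56. The median log2 fold change was 5.93, and the fold of such genes, near 0 in the negative sums, depends on the small count that the fit adds. MCM5 was at 0, 0, 0, 0 and 41.7 CPM in the negative and 0, 654, 382, 429 and 176 CPM in the positive sums (adjusted p = 0.322). MCM2, another helicase subunit, had a mean of 10.02 CPM in the negative and 367 CPM in the positive sums (adjusted p = 0.251). MCM4 was not tested, since it was read in too few sums to pass the filter, and not for a low level. It had 0 reads in all negative sums and 0, 524, 1574, 198 and 32.7 CPM in the positive sums, with fish 4 far above the other pairs. PCNA had 214, 222, 45.8, 0 and 87.9 CPM in the negative and 0, 4940, 2325, 1304 and 334 CPM in the positive sums (4.06 ± 1.35, adjusted p = 0.432). Each of these genes was higher in 4 of 5 fish, and none was higher in fish 1. Other replication genes differed there. ORC4 was higher in 5 of 5 fish, at 0 and 48.9 CPM in the negative and positive sums of fish 1. RRM2 (ENSDARG00000078069) was higher in 5 of 5 as well, at 0 and 1.68 CPM in fish 1, while MCM7 was at 0 in both.

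ACTL6A, a subunit of chromatin remodelling complexes of progenitors, separated the classes without overlap. This gene was named by the study from its own division of these libraries by ccnd1, so its separation is not independent. It was at 0, 0, 0, 0 and 0.556 CPM in the negative and 317, 189, 144, 447 and 72.4 CPM in the positive sums (edgeR adjusted p = 0.249, DESeq2 adjusted p = 9.80e-07), and was read in 14 of 31 positive cells and 1 of 42 negative cells. si:ch211-222l21.1, which carries no name, was at 0, 234, 502, 0.396 and 579 CPM in the negative and 1275, 2548, 1639, 1585 and 788 CPM in the positive sums (4.48 ± 1.23, adjusted p = 0.133). It was named for its p, the lowest among higher genes, after the values were seen. Over all genes, 19 of 3736 (0.509%) had every positive sum above every negative sum and 36 (0.964%) the reverse. Of the 49 genes of histone variants and chromatin assembly, 38 were tested and 32 lay above 0, with a median of 1.06 and per-fish medians of 0.29 to 1.85. Of these, edgeR called 0 (4 were higher at an unadjusted p of 0.05, against 0.964% of all genes) and DESeq2 called 3 higher (against 2.48%). The replacement histone h3f3a stood at a mean of 89.8 CPM in the negative and 385 CPM in the positive sums, and the histone variant h2ax at 2.54 and 133 CPM. Both separated the classes without overlap (edgeR adjusted p = 1 for each, DESeq2 adjusted p = 0.133 for h3f3a and 0.000588 for h2ax).

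Genes of growth mostly lay above 0, against 45.7% of all tested genes. Over the chaperonin CCT, spliceosomal, ribosomal protein, ribosome biogenesis and Ran cycle lists edgeR called 0 genes. At an unadjusted p of 0.05, 2 were higher, both of ribosome biogenesis, against 0.964% of all genes. DESeq2 called 1 spliceosomal gene higher (SNRPD1), 2 of ribosome biogenesis higher (NOP56 and UTP4) and 2 of the Ran cycle list higher and 1 lower (KPNA3). It called 2.48% of all genes higher and 5.05% lower. With 7, 49, 81, 29 and 11 genes tested in these lists, the higher calls over them together lay near the shares of all genes. The 7 tested subunits of the chaperonin CCT, which folds actin and tubulin, were all above 0, with a median of 1.40. Its subunit TCP1 was at 141, 185, 151, 118 and 188 CPM in the negative and 817, 564, 596, 424 and 339 CPM in the positive sums, without overlap (1.66 ± 1.102, adjusted p = 1). Of the spliceosomal proteins 36 of 49 tested were above 0 (median 0.91), including SNRPD1, an Sm core protein, at 26.1 and 201 CPM. Of 81 tested ribosomal proteins 76 were above 0, but the shift was small (median 0.39, per-fish medians -0.06 to 1.47, median 0.20 without fish 5 and 0.26 without batch bfx811). Ribosome biogenesis genes had a median of 0.42 over 29 tested, and the Ran cycle and nuclear import one of 1.21 over 11. With cells thinned, these 2 medians were 0.09 over 9 genes and 0.07 over 4. Those of the CCT, spliceosomal and ribosomal protein lists were then 1.19, 1.01 and 0.32 (6, 19 and 80 genes). The inhibitors of cyclin-dependent kinases and their pocket proteins had a median of -0.07 over 11, with 0 called by edgeR. Of these, 1 was lower at an unadjusted p of 0.05 (against 2.84% of all genes) and 1 higher by DESeq2 (against 2.48%). In this list, GADD45G (ENSDARG00000016725), a stress and cell cycle regulator, had means of 12.1 and 200 CPM and CCNG1, cyclin G1, of 2181 and 1093 CPM (edgeR adjusted p = 1 and 0.917, DESeq2 adjusted p = 0.00529 for GADD45G).

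**Figure D4:**
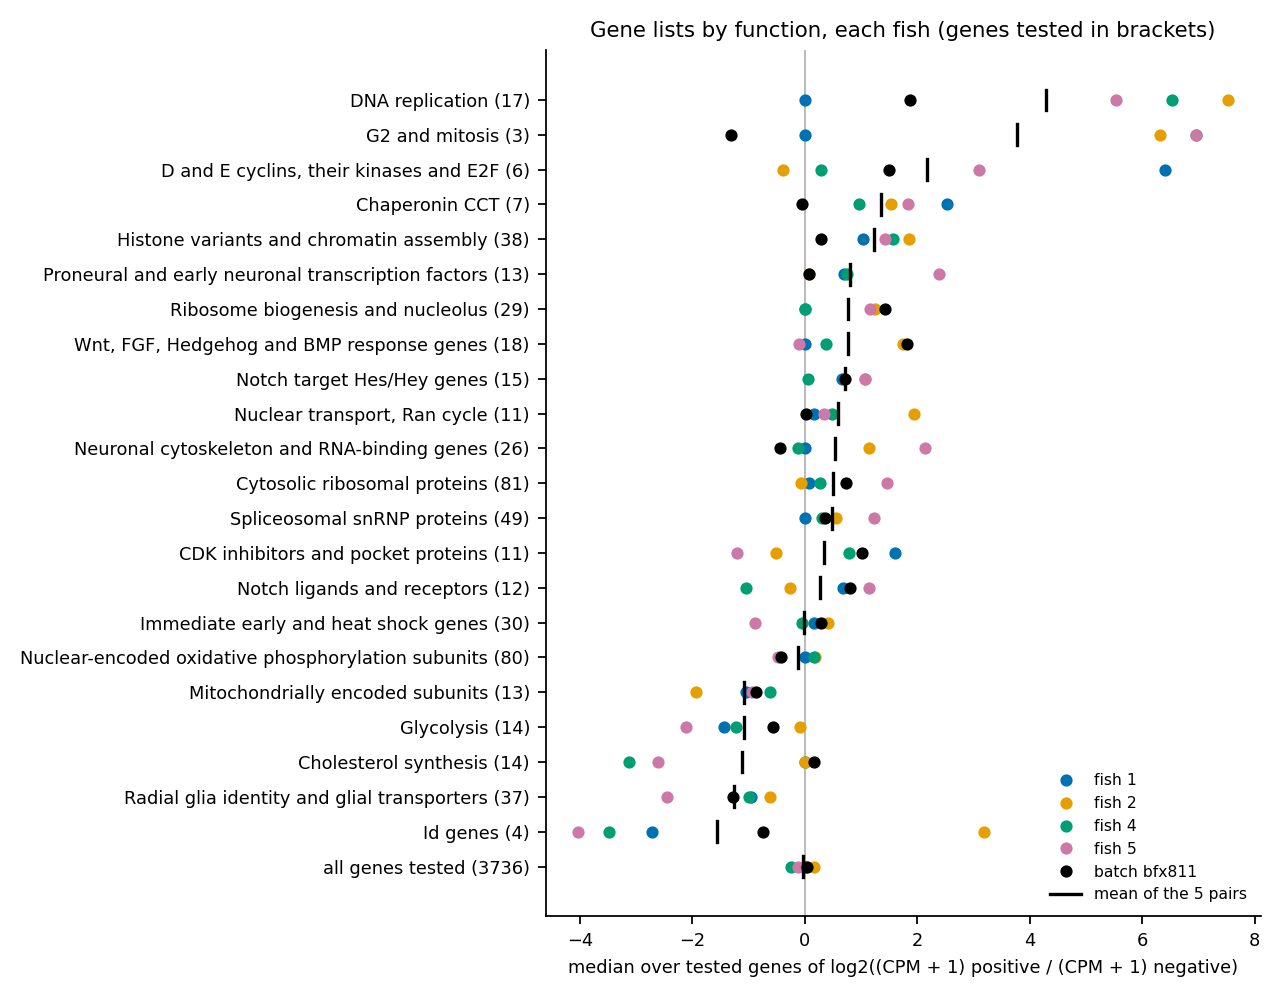
Median over the tested genes of each list of the log2 ratio of positive to negative CPM (1 added to each), for each of 5 fish (points) with their mean (bar). The radial glia, mitochondrially encoded and glycolysis lists lie below 0 in all 5 fish, and all tested genes between -0.25 and 0.16. The histone, Hes/Hey, Ran cycle and proneural lists lie above 0 in all 5. In fish 2 the proneural median (0.07) lies below that of all tested genes (0.16). In batch bfx811 the Ran cycle median (0.02) lies below that of all tested genes (0.04).

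Among Notch target genes 0 were called by edgeR or DESeq2. The 15 tested Hes and Hey genes had a median of 0.75, with per-fish medians of 0.05 to 1.08, and a median of 0.38 without fish 2. Of these, 12 lay above 0 and 6 were higher at an unadjusted p of 0.05, against 0.964% of all genes. her4.2 was at 3584, 3202, 7125, 2567 and 9266 CPM in the negative and 7674, 9416, 6916, 7239 and 11566 CPM in the positive sums (0.78 ± 0.25, adjusted p = 0.358), higher in 4 of 5 fish. her15.2 was higher in 5 of 5, from 488, 2546, 2827, 157 and 2612 CPM to 2251, 3190, 3954, 1199 and 4834 CPM (1.25 ± 0.40, adjusted p = 0.350). her4.1, whose promoter drives the reporter of the gate, had means of 3879 and 5134 CPM (0.25 ± 0.29, adjusted p = 1), and without fish 2 its log2 fold change was -0.048. The her4 and her15 genes are close copies, and uniquely aligned reads may be split unevenly between them. Among 12 tested ligands and receptors (median 0.18) the ligand dlc was at 0, 0, 70.05, 0 and 11.1 CPM in the negative and 411, 142, 513, 174 and 119 CPM in the positive sums, without overlap (edgeR adjusted p = 0.937). It was the list member called by DESeq2 (adjusted p = 0.000118) and the one higher at an unadjusted p of 0.05. Of all genes, DESeq2 called 2.48% higher, and 0.964% were higher at that unadjusted p.

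Among neurogenic genes edgeR called 0. Over the neuronal cytoskeletal and RNA-binding list 1 gene was higher and 1 lower at an unadjusted p of 0.05, and DESeq2 called the same 2, STMN1 (ENSDARG00000004169, adjusted p = 0.00159) and DPYSL5 (adjusted p = 4.26e-05). Of all genes, 0.964% were higher and 2.84% lower at that unadjusted p, and DESeq2 called 2.48% and 5.05%. Over the proneural list 0 passed either test. ascl1a, the proneural factor of neural progenitors, was at 260, 588, 111, 0 and 127 CPM in the negative and 111, 618, 467, 1086 and 580 CPM in the positive sums (1.64 ± 1.34, adjusted p = 1), higher in 4 of 5 fish. Its copy ascl1b was at 0, 179, 177, 0 and 210 CPM in the negative and 891, 442, 299, 614 and 265 CPM in the positive sums, without overlap (3.13 ± 1.88, adjusted p = 1), and was read in 19 of 31 positive and 8 of 42 negative cells. Both were scarce in the NBN gate, at a mean of 16.9 CPM for ascl1a and 8.204 CPM for ascl1b. Of the stathmins, tubulin-binding proteins, STMN1 (ENSDARG00000033655) was at means of 592 and 1177 CPM in the classes and 6609 CPM in the NBN gate, and STMN1 (ENSDARG00000004169) at 8.35, 179 and 7.52 CPM. The thymosin tmsb had means of 136 and 172 CPM (adjusted p = 1). The identifier listed as sox4a (ENSDARG00000096389) had 0 reads in both classes and in all 164 NBN gate cells. It gives no measurement of sox4a, which the study reports as enriched in proliferating radial glia of these libraries. The tested proneural and early neuronal factors had a median of 0.58 (13 genes) and the neuronal cytoskeletal and RNA-binding genes one of 0.72 (26 genes). Both changed in size with a fish left out. The first was 1.28, 1.23 and 1.40 without fish 2, fish 4 or batch bfx811, and 0.43 and 0.55 without fish 1 or 5. Its per-fish medians were 0.07 to 2.39, above 0 in 5 of 5 fish, but in fish 2 below the 0.16 of all tested genes. The second was 0.04, 1.27 and 0.37 without fish 2, 4 or 5, with per-fish medians of -0.43 to 2.14. In the latter list DPYSL5, a cytoskeletal protein of young neurons, was at 39.1, 296, 228, 154 and 119 CPM in the negative sums and at 0 reads in all positive sums (edgeR adjusted p = 0.322). It was read in 0 of 31 positive and 11 of 42 negative cells, and these counts set no firm lower bound on its fold.

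Genes of energy metabolism lay mostly below 0, the nuclear-encoded subunits less so. The 13 mitochondrially encoded subunits of the respiratory chain all had a log2 fold change below 0 (median -1.43, per-fish medians -1.93 to -0.62). Of these, edgeR called 0 and DESeq2 called 1 lower (MT-ATP6), and 5 were lower at an unadjusted p of 0.05, against 2.84% of all genes. MT-ATP6, a subunit of ATP synthase, was at 4869, 3118, 2912, 4179 and 1521 CPM in the negative and 1442, 819, 1908, 1508 and 834 CPM in the positive sums (-1.43 ± 0.39, edgeR adjusted p = 0.132, DESeq2 adjusted p = 0.0377), lower in 5 of 5 fish. Reads on the 13 mitochondrially encoded subunits made up 1.61% of the reads of positive and 2.93% of those of negative cells (n = 5, exact permutation p = 0.0625). The quality filters also used this share, and the part of RNA quality in it was not tested. The 80 tested nuclear-encoded subunits had a median of -0.39, against -0.22 for all tested genes. Their per-fish medians were -0.47 to 0.18, with 2 fish above 0 and 2 below. Of these subunits edgeR called 0, with 0 at an unadjusted p of 0.05. DESeq2 called 2 higher and 1 lower, against 2.48% and 5.05% of all genes. The 14 tested glycolytic genes had a median of -1.51, with 0 of the 14 above 0. Of the glycolytic genes 0 were called by either, and 2 were lower at an unadjusted p of 0.05, against 2.84% of all genes. The glycolytic median was -0.98 without fish 1 and -0.67 without fish 5. GAPDHS and ALDOC, which also belong to the radial glia list, were the lowest in p. GAPDHS was at 2910, 1734, 2528, 4321 and 2659 CPM in the negative and 959, 1531, 1832, 1652 and 1041 CPM in the positive sums (-1.11 ± 0.41, adjusted p = 0.710). Cholesterol synthesis had a median of -0.87 over 14 tested genes, Id genes one of -0.83 over 4, targets of the Wnt, FGF, Hedgehog and BMP pathways one of 1.21 over 18, and immediate early and heat shock genes one of 0.04 over 30. The other D and E cyclins with their kinases and E2F factors had a median of 2.07 over 6 tested. With cells thinned, the cholesterol synthesis and Id medians were -0.41 over 7 genes and -0.65 over 4. Those of the pathway targets, the immediate early and heat shock genes and the cyclins were then 0.42, 0.07 and 1.99 (6, 21 and 4 genes). Of 47 genes of G2 and mitosis 3 passed the filter, too few to describe the list. In these last 6 lists edgeR called 0, with 1 higher at an unadjusted p of 0.05 (egr4), against 0.964% of all genes. DESeq2 called KIF22 of the mitotic list higher (adjusted p = 0.00593) and ACAT2 of cholesterol synthesis lower (adjusted p = 0.0247), against 2.48% and 5.05% of all genes. KIF22 was higher in 3 of 5 fish. It was lower in fish 1 (156 CPM in the negative and 0 CPM in the positive sum) and batch bfx811 (47.3 and 18.4 CPM).

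Markers of other cell types were scarce in most cells of both classes. The most genes read in a cell were 12 of microglia and blood and 8 ependymal in the negative class, against 2 and 4 in the positive class. For the neuronal, oligodendrocyte and endothelial lists they were 5, 4 and 3 against 4, 2 and 3. The part of these markers in the differences above was tested only by leaving cells out, and the ependymal list took no part in that. Summed over 15 oligodendrocyte lineage genes the level was 2.11 to 738 CPM in the negative sums and 0 to 77.8 CPM in the positive sums, with OLIG2 at 0 reads in all positive sums. Over 16 genes of microglia and blood it was 0 to 1460 CPM and 0 to 17.3 CPM, over 23 neuronal genes 2.37 to 640 CPM and 0 to 74.5 CPM, over 15 genes of endothelium and mural cells 29.6 to 375 CPM and 40.4 to 355 CPM, and over 12 ependymal genes 208 to 1211 CPM and 133 to 482 CPM. At 0 in the class were 6, 4, 10, 10 and 3 of these genes in the negative and 11, 11, 12, 9 and 7 in the positive sums. Much of the endothelium and mural level was NOTCH3, a Notch receptor. It had means of 109 and 193 CPM in the negative and positive sums, against 172 and 243 CPM for the whole list. NOTCH3 was read in 25 of 42 negative and 18 of 31 positive cells. Leaving out 10 cells with reads of 3 or more genes of 1 of the first 4 lists (3 positive and 7 negative, a choice made after the values were seen) gave 13 genes lower and 0 higher, with 12 of the 13 shared. Leaving out cells with a read of elavl3 gave 7 lower and 2 higher. In these libraries a smaller share of expressing cells and less RNA per cell cannot be told apart within a sum, and cell counts, where given, bear on the first. Some genes without overlap between the classes rest on few cells. h2ax was read in 8 of 31 positive and 1 of 42 negative cells, dlc in 8 and 3, zgc:153704 in 2 and 18, and DPYSL5 in 0 and 11.

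The share of cells with a read was compared over fish as well, where 5 fish allow no p below 0.0625 and 0 genes passed. ACBD7 had reads in 4 of 31 positive and 24 of 42 negative cells, a difference of -50.0 percentage points averaged over fish. GJA1 differed by -29.7 points, SLC6A11 by -34.7, ACTL6A by 44.6 and ascl1b by 40.0, each with the same direction in 5 of 5 fish (n = 5, exact permutation p = 0.0625 for each, 0.266 after Benjamini-Hochberg adjustment over 119 genes). FABP7, lower in level, was read in nearly every cell of both classes, and its share differed by 3.64 points (n = 5, exact permutation p = 1).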

How the data were processed

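Libraries were made from single cells by SMART-seq2. Reads were aligned by the authors to GRCz10 with GSNAP 2017-08-15 and counted per Ensembl gene with featureCounts 1.5.3 where uniquely aligned, and the authors deposited raw counts of 32266 genes in 370 cells. The strand setting is not given in the sources used here. Spike-in reads are not among these genes, so no spike-in filter was run. No 2 cells held identical values.

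Members and lists were chosen with earlier results of these data known. RG gate cells needed a log10 of reads above 4.5, a log10 of 2.7 to 3.9 for genes above 1 read, under 50% of reads in the top 50 genes and under 20% of reads on the 13 mitochondrially encoded subunits. Counts were summed per fish and class (at least 3 cells of each) and tested with edgeR 4.0.16 in R 4.3.3 (quasi-likelihood, TMM, filterByExpr, fish as a block, Benjamini-Hochberg), with DESeq2 1.42.0 as an alternative. By the titles, both sums of fish 1, 2, 4 or 5 come from the same animal, though the separate fish label cuts across fish 2 and 4. Batch bfx811 carries no fish number and was counted as 1 fish. Deviations of the 2 sums of a fish from the class means correlated at 0.07, -0.01, 0.02, 0.02 and 0.10 in fish 1, 2, 4, 5 and batch bfx811. Standard errors were the fold change over the root of the test statistic. Per-cell values were compared with exact sign-flip permutation tests in Python 3.11.15 (numpy 2.4.6, scipy 1.17.1). The fit was tested on simulated data.

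Of 785 names in 27 lists 32 were not found. Symbols follow a table that gives many genes their human symbol, so copies are told apart by identifier. Genes were named by rule: those the study names for these classes, up to 15 called genes per direction with at least 20 CPM and the same sign in every fish, and of each list the called members up to 6, otherwise the 2 with the lowest p. Any other gene given here was picked after its values were seen. Not every gene of the rule is printed. Genes that the study reported as differing between these classes came from the same libraries, so their differences here are not independent evidence.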

Additional observations from a re-analysis of the deposited data

Results flagged for a closer look

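Of 25 sets of 5 per-fish differences looked at, 2 held a fish far from the others, and chance sets apart about 1 in 20. For GJA1, fish 4 had a log2 difference of -3.74, and the other 4 pairs lay between -1.92 and -1.28. For zgc:153704, fish 4 had -2.46, and the others lay between -10.0 and -7.95. In both cases the direction was the same in all 5 fish.

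ccnd1 reads were also present outside the cells compared. In the NBN gate 8 of 164 cells that passed had a read (4.88%, exact 95% interval 2.13 to 9.39%), above the 1.83% that a count of 0 would allow. They came from 5 fish and held 1 to 15 reads, with a median of 1, against 138 in the ccnd1-positive RG gate cells. All 8 had elavl3 reads, and they held reads of 1 to 27 replication genes (median 4.5). Among RG gate cells that failed the filters, 6 of 98 had a read (6.12%, interval 2.28 to 12.9%), above 3.06%, with 1 to 313 reads.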

How the results depend on the processing

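Genes higher in the positive sums numbered 91 with DESeq2, 2 with the 4-value fish label, 2 without cells with elavl3 reads, 1 with relative log expression factors, 1 without the filter on low counts and 0 to 1 with a fish left out. Genes lower numbered 185 with DESeq2, 20 when genes with 1 read counted for the filter on cells, 8 with fish 3 included (at least 1 cell), 7 without cells with elavl3 reads, 1 after thinning and 1 to 10 with a fish left out. With no replicate block, and so without the pairing by fish, 1 gene was lower, and it was 1 of the 6 members of the radial glia list. Of that list, 3 members were lower without cells with elavl3 reads, 0 after thinning and 0 to 3 with a fish left out. The radial glia median stayed between -1.50 and -0.92 under the alternatives run. The Hes/Hey median was 0.18 with the fish label, the glycolysis median -1.89 to -0.67 with a fish left out, and the neuronal cytoskeleton median -0.11 with fish 3 included. GLUL (ENSDARG00000100003) turned to -0.17 with the filter on genes with 1 read and -0.12 with the fish label, and her4.1 ranged from -0.048 to 0.55 with a fish left out. The difference in reads per cell ranged from -23014 to 2233 with a fish left out, and that in genes per cell was -76.6 with at least 5 cells of a class, which leaves batch bfx811 alone. At that minimum the fit across genes was not run. All 13 lower genes kept their direction under every alternative in which they were tested. The causes were not tested. Requiring 10 or more ccnd1 reads changed 1 cell and requiring over 20% of reads mapped removed 0, so neither is a check of the 13 calls.

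Depth limits what can be seen: with 3 to 12 cells in a sum, a gene read in few cells was mostly too scarce to be tested.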

Other observations

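Within the ccnd1-positive class the radial glia list took a median of 1.78% of reads (0.927 to 4.59%) in the 11 cells with 6 or more replication genes and 3.91% (0.597 to 21.4%) in the other 20, against 8.53% in the 41 negative cells with 5 or fewer. The Hes and Hey list took medians of 4.81%, 4.58% and 1.93% of reads in the same cells. The 11 cells also had more genes read in total, with a median of 2061 against 1325.5 in the 20 and 1550 in the 41. The limit of 6 genes was set after the values were seen, cells of 1 fish are not replicates, and these shares were not tested.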
